A study of Mus musculus with 384 samples.

Results

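Glycolysis and the response to low oxygen were read through 37 genes, listed by name from the known pathway, and all 37 had a row among the 31617 genes of the count table. They comprise 2 glucose transporters, 9 enzymes of the early steps, 7 of the late steps, 4 genes of lactate production and export, 3 bifunctional regulators of phosphofructokinase, 4 genes of pyruvate entry into mitochondria, 3 genes of oxygen sensing and 5 targets of the hypoxia response. Expression was measured by Smart-seq2, a full-length single-cell RNA-seq method, in 384 mouse pluripotent stem cells, 96 from each of 4 cell lines. The lines 5ar1 and 5ar2 are formative stem (FS) cells kept in a medium that the labels call A3XR, which holds activin at 3 ng/ml, the tankyrase inhibitor XAV939 and BMS493, an inverse agonist of retinoic acid receptors. The lines AFX6 and AF32 are epiblast stem cell (EpiSC) lines kept in activin at 20 ng/ml with Fgf2, AFX6 with XAV939 (AFX medium) and AF32 without it (AF medium). All lines were grown in N2B27 on fibronectin at a reduced oxygen of 5%, so no group at ambient oxygen serves as a control for the hypoxia genes. Each EpiSC medium is represented by 1 line, so that line and medium cannot be told apart, and the replicate of a group is the line, with 2 FS lines against 2 EpiSC lines.

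Glycolysis splits glucose into pyruvate and yields ATP without oxygen, and lactate dehydrogenase turns the pyruvate into lactate, which monocarboxylate transporters export. Primed pluripotent cells are known for a high rate of this pathway. The transcription factor subunit HIF1A is hydroxylated by the prolyl hydroxylases of the Egln family when oxygen is at hand and is then degraded, whereas at low oxygen it pairs with ARNT and binds the core motifs ACGTG and GCGTG near its target genes, which include most glycolytic enzymes.

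The upstream sequences of 4 members are shown because Pgk1, Ldha and Bnip3 varied together between cells, as described below, and because Ankrd37 is a hypoxia target, and they carry the core motifs in different arrangements. Each run is the 250 bases before a transcription start, 5′ to 3′ on the strand of the gene, from RefSeq promoters of GRCm38.p6, and capitals mark every match to ACGTG or GCGTG on either strand (CACGT and CACGC as read on the strand shown, with overlapping matches merged).
Ldha (chr7:46845554-46845803, plus strand): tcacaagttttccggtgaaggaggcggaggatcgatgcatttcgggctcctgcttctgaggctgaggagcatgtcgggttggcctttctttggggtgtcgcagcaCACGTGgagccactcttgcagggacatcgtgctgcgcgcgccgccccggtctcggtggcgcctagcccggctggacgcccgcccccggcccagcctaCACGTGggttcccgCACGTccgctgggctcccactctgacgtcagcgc
Pgk1 (chrX:106186850-106187099, plus strand): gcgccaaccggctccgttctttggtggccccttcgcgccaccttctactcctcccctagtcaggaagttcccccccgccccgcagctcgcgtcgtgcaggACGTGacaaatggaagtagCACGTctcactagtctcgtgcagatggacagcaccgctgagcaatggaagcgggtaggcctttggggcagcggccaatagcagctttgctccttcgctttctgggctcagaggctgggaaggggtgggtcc
Bnip3 (chr7:138909507-138909756, minus strand): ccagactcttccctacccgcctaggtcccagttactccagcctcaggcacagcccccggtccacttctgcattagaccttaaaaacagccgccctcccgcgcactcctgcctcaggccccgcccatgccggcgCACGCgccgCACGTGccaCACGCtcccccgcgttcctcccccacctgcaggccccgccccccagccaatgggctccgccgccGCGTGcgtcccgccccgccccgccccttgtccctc
Ankrd37 (chr8:45999851-46000100, minus strand): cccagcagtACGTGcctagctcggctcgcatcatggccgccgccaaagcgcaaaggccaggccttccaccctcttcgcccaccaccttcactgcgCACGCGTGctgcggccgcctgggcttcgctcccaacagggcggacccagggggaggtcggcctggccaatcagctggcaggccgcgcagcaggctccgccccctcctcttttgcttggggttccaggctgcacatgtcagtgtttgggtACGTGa
The Ldha run holds 5 matches, of which 4 form 2 copies of the palindrome that reads the same on either strand. Another Ldha promoter (chr7:46846832-46847081, not shown) holds 1 match and no ACGTG. Which start these cells use was not tested. The Pgk1 run holds 2 matches, the Bnip3 run 5 and the Ankrd37 run 4. Of the 35 members with a promoter in the table, 32 held a match in at least 1 of their promoters (91.4%), and 21 held ACGTG (60.0%). The share with either motif was 41.5% of the 27025 genes with a promoter and 65.1% of the 7117 of them that averaged at least 10 counts per 1000000 counts (CPM) in these cells. For ACGTG alone these shares were 18.5% and 27.1%. Gpi1, Tpi1 and Eno2 held no match. Gpi1 and Tpi1 nevertheless varied between cells with the other glycolysis genes, at a Spearman rho of 0.513 to 0.732 and 0.509 to 0.731 over the lines. For Eno2 it was -0.157 to 0.312. The part of the motifs in the variation between cells was not tested. A match is a description of the letters and not a binding site.

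After cells under 3000000 counts were left out, 90 cells of 5ar1, 90 of 5ar2, 66 of AFX6 and 80 of AF32 remained, with 3022666 to 6686007 counts each. The median number of detected genes was 11371 and 11567 in the FS lines and 10328 and 10330 in the EpiSC lines. Of the markers of the labelled cell type, Pou5f1 lay between 489.7 and 643.6 CPM in all 4 lines, Sox2 between 4.88 and 17.5 CPM and Otx2 between 110.3 and 178.0 CPM. Nanog was at 28.5 and 33.5 CPM in the FS lines against 158.6 and 399.9 CPM in AFX6 and AF32, Dnmt3b at 2243 and 1434 against 493.4 and 615.8 CPM, and Utf1 at 799.4 and 722.5 against 1057 and 302.3 CPM. The summed level of 3 naive markers was at most 3.68 CPM, that of 4 endoderm markers at most 8.76 CPM and that of 3 trophoblast markers at most 6.14 CPM in any line. Streak and mesoderm markers summed to 61.7, 48.6, 7.38 and 45.3 CPM in 5ar1, 5ar2, AFX6 and AF32, of which Eomes made up 61.3 and 48.2 CPM in the FS lines and T 39.1 CPM in AF32. Neural markers summed to 16.6 to 337.6 CPM, of which Tubb3 made up 12.2 to 335.2 CPM, and fibroblast markers to 6.62 to 40.7 CPM. The part of these levels in the results was not tested.

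The members took 4.82% and 4.12% of all counts in the FS lines 5ar1 and 5ar2, and 6.07% and 4.91% in AFX6 and AF32. Per kilobase of exon, Gapdh, Aldoa, Ldha and Pkm, which stand at different steps of the pathway, were the most abundant in every line, with 2129 to 3166, 1411 to 2769, 1730 to 2418 and 1205 to 1503 CPM per kb. Pfkfb2 was the scarcest, at 0.131 to 0.156 CPM per kb. Levels below are CPM of the counts summed over the cells of a line, named in the order 5ar1, 5ar2, AFX6 and AF32.

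**Figure D1:**
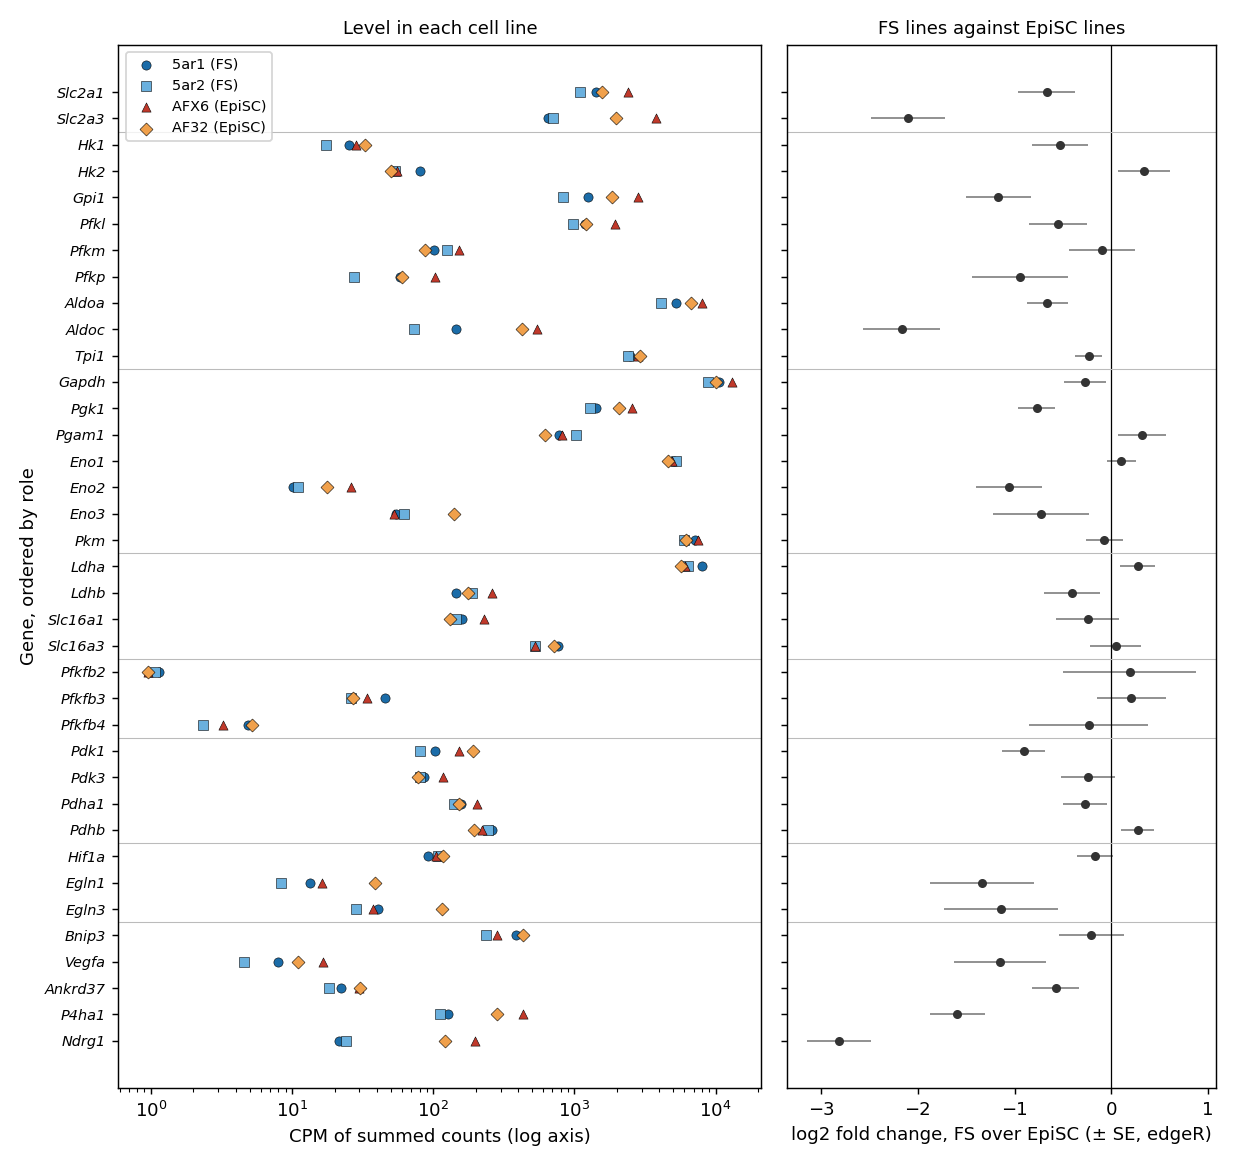
Left, the level of each of the 37 genes in the 4 cell lines as CPM of summed counts on a log axis; right, the log2 fold change of the FS lines over the EpiSC lines with its standard error from edgeR. Grey lines part the roles, from glucose uptake at the top to hypoxia targets at the bottom; Slc2a3, Aldoc, P4ha1 and Ndrg1 lie farthest to the left of 0, and no gene passed the adjusted threshold.

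The glucose transporters were higher in the EpiSC lines. Slc2a3 (ENSMUSG00000003153, chr6:122727809-122801640 of GRCm38), which encodes the high-affinity transporter GLUT3, was at 648.7, 710.0, 3796 and 1980 CPM. The FS lines lay within 1.09-fold of each other, and the lower EpiSC line was 2.79-fold above the higher FS line. In single cells Slc2a3 ranged from 3.46 through a median of 610.7 to 1748 CPM in 5ar1, from 69.3 through 609.4 to 1932 in 5ar2, from 316.5 through 3440 to 10948 in AFX6, and from 30.6 through 1897 to 4543 in AF32. The log2 fold change of FS over EpiSC was -2.10 (SE 0.38), with an edgeR adjusted p of 0.190. Slc2a1, which encodes the widely expressed GLUT1, was at 1431, 1092, 2394 and 1581 CPM, and the nearest FS and EpiSC lines differed by 1.105-fold.

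Of the 9 early enzymes, which carry glucose to the triose phosphates, 7 had both FS lines below both EpiSC lines. This was so for 21.5% of all genes tested and 27.8% of those of at least 10 CPM. Hk1, Pfkl and Pfkp kept this order in 8, 7 and 7 of 9 ways of summing and scaling. Aldoc (ENSMUSG00000017390, chr11:78322968-78327781), the brain-type aldolase, showed the widest gap, at 144.3, 73.6, 542.5 and 428.5 CPM and a log2 fold change of -2.17 (SE 0.40, edgeR adjusted p = 0.190). The major aldolase Aldoa was at 5267, 4107, 8059 and 6655 CPM. Gpi1, which turns glucose 6-phosphate into fructose 6-phosphate, was at 1258, 831.9, 2802 and 1845 CPM, with a log2 fold change of -1.17 (SE 0.33, edgeR adjusted p = 0.223). The liver-type phosphofructokinase Pfkl (1199, 971.0, 1935 and 1213 CPM) and the platelet-type Pfkp (58.2, 27.4, 102.6 and 60.0 CPM) also had the FS lines lower, but AF32 was only 1.01-fold and 1.03-fold above 5ar1. Without the 18 AF32 cells of a raised chromosome 10 ratio Pfkl stood at 1072 CPM in AF32, and the groups overlapped. Triose phosphate isomerase, Tpi1, differed little, at 2497, 2395, 2818 and 2912 CPM. The hexokinases, which trap glucose in the cell, were scarce. Hk1 was at 25.3, 17.4, 28.4 and 32.9 CPM, but its median over cells was 19.1, 2.51, 0.349 and 11.25 CPM, with overlapping groups. Hk2 was at 80.9, 53.5, 55.1 and 50.5 CPM, where 5ar1 stood alone above the other lines. The muscle-type Pfkm, at 102.0, 124.3, 152.0 and 87.9 CPM, had overlapping groups.

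Among the 7 late enzymes, Pgk1 (ENSMUSG00000062070, chrX:106187100-106203699), the first ATP-forming kinase of the pathway, was at 1421, 1300, 2556 and 2059 CPM. Its log2 fold change was -0.77 (SE 0.19, edgeR adjusted p = 0.192). The ratio of X-linked to autosomal expression, with each gene divided by its mean over all cells, had medians of 0.981, 0.994, 1.06 and 1.07 in the lines. The other X-linked members, Pdha1 and Pdk3, had overlapping groups. Eno2, the neuronal enolase, was at 10.2, 11.1, 26.2 and 17.6 CPM and was found at 10 CPM or more in 26 of 90, 28 of 90, 22 of 66 and 15 of 80 cells. Gapdh (10574, 8800, 13086 and 10058 CPM) and Pkm (7103, 6026, 7518 and 6196 CPM) overlapped between the groups. Pgam1 was at 782.0, 1025, 818.6 and 621.5 CPM. Pgam1 lies on chromosome 19, and in the 52 of 90 5ar2 cells whose chromosome 19 expression was over 1.2 times their autosomal median it averaged 1170 CPM against 827.0 CPM in the other 38, so that the ratio of 5ar2 to 5ar1 was 1.31 over all cells and 1.06 without cells of a raised ratio in either line. Eno1 was at 5059, 5229, 4934 and 4575 CPM, the narrowest spread of any late enzyme. Eno1b, a gene on chromosome 18 whose transcript matches that of Eno1 at 99.5% over 1736 bases, had 1252, 1094, 1149 and 1130 CPM of its own. Reads of these genes cannot be told apart where the sequence is identical. Such reads do not map uniquely and were not counted, so a sum of both genes does not recover them. With both added the levels were 6311, 6323, 6083 and 5705 CPM, in the same order of groups. Eno1 alone kept both FS lines above both EpiSC lines in 7 of 9 ways of summing and scaling. The groups overlapped with DESeq2 size factors and with TMM scaling, which the edgeR test used (5019, 5247, 5029 and 4509 CPM). Eno3, the muscle enolase, was at 54.6, 62.0, 53.0 and 140.6 CPM, with AF32 apart from the other lines.

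Of the 4 lactate genes 1 had groups that did not overlap, where 21.5% of all genes tested had both FS lines below and 26.8% above. Ldha, the subunit that favours lactate formation, was at 8004, 6390, 6113 and 5725 CPM, with both FS lines above both EpiSC lines, and its log2 fold change was 0.27 (SE 0.18, edgeR adjusted p = 0.573). Ldhb was at 145.1, 188.0, 262.1 and 176.1 CPM. The lactate exporter Slc16a3 was at 762.5, 523.9, 526.4 and 714.7 CPM, and Slc16a1 at 161.2, 144.5, 227.6 and 131.0 CPM. Groups overlapped for these 3 genes. Of the bifunctional enzymes that set the level of fructose 2,6-bisphosphate, an activator of phosphofructokinase, Pfkfb3 was at 45.3, 26.0, 34.1 and 27.2 CPM, while Pfkfb4 did not exceed 5.25 CPM and Pfkfb2 did not exceed 1.13 CPM in any line.

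Of the genes that govern pyruvate entry, Pdk1, the kinase that shuts pyruvate dehydrogenase and a known hypoxia target, was at 103.1, 80.3, 151.5 and 191.1 CPM (log2 fold change -0.91, SE 0.22, edgeR adjusted p = 0.191). Pdk1 lies on chromosome 2, and in the 51 AF32 cells whose chromosome 2 ratio was not raised it stood at 160.3 CPM, still above AFX6. Pdk3 was at 86.6, 80.5, 117.7 and 77.6 CPM. Of the dehydrogenase subunits, Pdha1 was at 157.5, 140.8, 204.9 and 152.2 CPM, with overlapping groups, and Pdhb at 261.2, 244.3, 220.4 and 195.5 CPM. Pdhb was one of the 4 of 37 members with both FS lines above both EpiSC lines, together with Eno1, Ldha and Pfkfb2, where 26.8% of all genes tested did. Pdhb and Ldha kept this order in all 9 ways of summing and scaling, Eno1 in 7 and the scarce Pfkfb2 in 6. With all 384 cells Pfkfb2 had both FS lines below instead (1.12, 1.04, 1.34 and 2.23 CPM).

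Among the genes of oxygen sensing, Hif1a mRNA was at 91.7, 107.9, 104.9 and 117.9 CPM, and the groups overlapped. The prolyl hydroxylases, which are themselves hypoxia targets, were highest in AF32. Egln3 (ENSMUSG00000035105, chr12:54178981-54203860) was at 40.6, 28.3, 37.5 and 115.0 CPM, and 66 of 80 AF32 cells reached 10 CPM against 48 of 90, 37 of 90 and 30 of 66 cells of the other lines. Its median over cells was 14.8, 0.565, 1.76 and 97.6 CPM, and at least 1 read was found in 80 of 90, 71 of 90, 57 of 66 and 77 of 80 cells. Egln1 was at 13.5, 8.3, 16.4 and 38.8 CPM. It lies on chromosome 8, whose ratio was over 1.2 in 41 of 80 AF32 cells, and in the other 39 cells Egln1 stood at 30.6 CPM, still the highest of the lines.

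**Figure D2:**
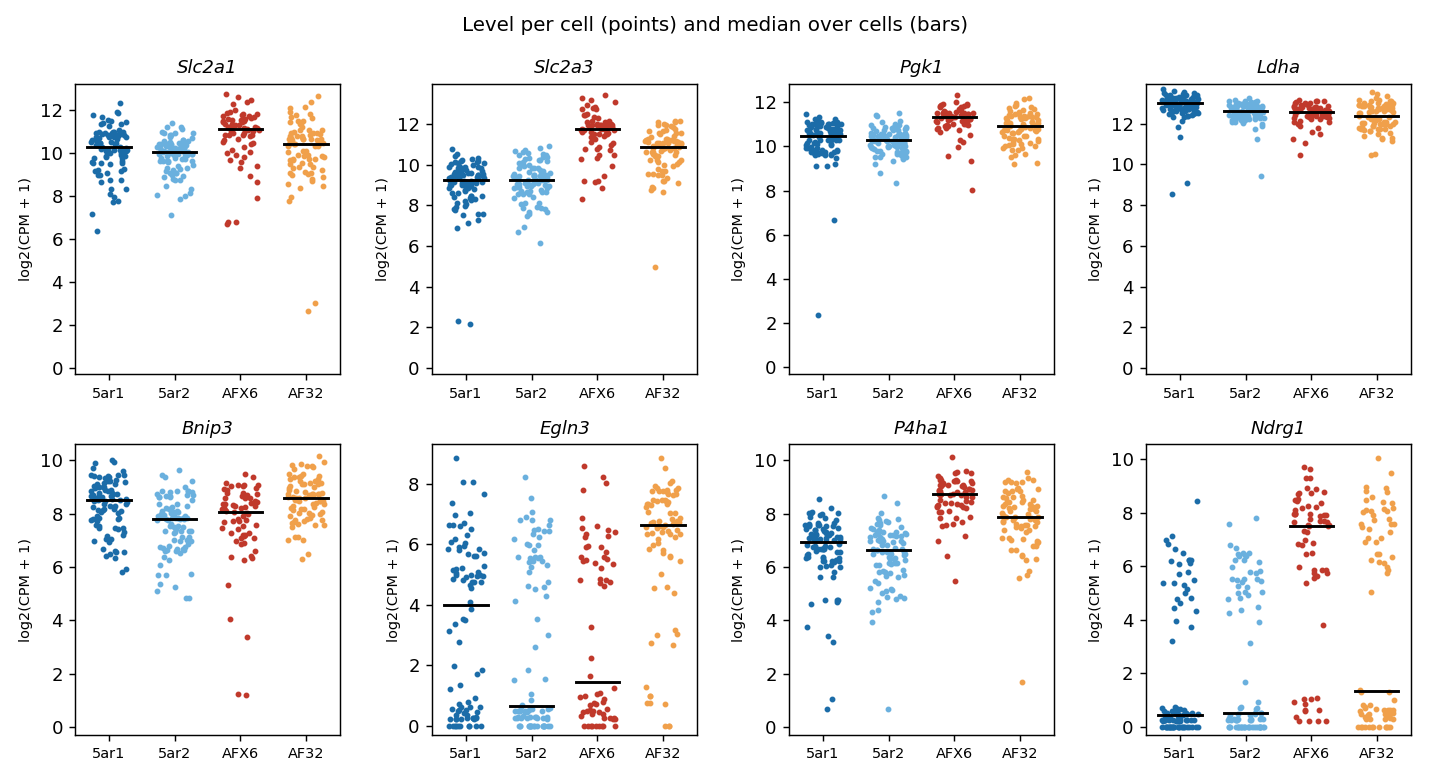
Level of 8 members in each kept cell as log2(CPM + 1), 1 panel a gene, with a bar at the median over the cells of a line (90, 90, 66 and 80 cells). The medians of Slc2a3 (609.4 and 610.7 against 1897 and 3440 CPM) and P4ha1 lay lower in both FS lines, whereas Ndrg1 had medians under 2 CPM in every line but AFX6 with a highest cell of at least 223.5 CPM.

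The hypoxia targets differed widely among themselves. Ndrg1 (ENSMUSG00000005125, chr15:66929318-66969640), a stress-responsive gene, was at 21.5, 24.0, 197.3 and 120.6 CPM, with a log2 fold change of -2.82 (SE 0.33, edgeR adjusted p = 0.190), the most negative of all members. In single cells it ranged from 0 through a median of 0.347 to 346.0 CPM in 5ar1, from 0 through 0.413 to 223.5 in 5ar2, from 0.160 through 182.9 to 842.4 in AFX6, and from 0 through 1.55 to 1064 in AF32. At least 10 CPM was reached by 30.0% of 5ar1 cells (27 of 90, exact 95% binomial interval 20.8 to 40.6%), 38.9% of 5ar2 cells (35 of 90, 28.8 to 49.7%), 80.3% of AFX6 cells (53 of 66, 68.7 to 89.1%) and 48.8% of AF32 cells (39 of 80, 37.4 to 60.2%). These intervals describe the cells of each line and do not compare conditions. The summed level in AF32 was 5.31-fold above the mean of the FS lines. P4ha1, a collagen prolyl hydroxylase, was at 128.0, 111.3, 432.6 and 283.4 CPM (log2 fold change -1.59, SE 0.28, edgeR adjusted p = 0.190), and nearly every cell held it, with 86 of 90, 89 of 90, 66 of 66 and 79 of 80 cells at 10 CPM or more. Vegfa, the angiogenic growth factor, was low, at 7.94, 4.57, 16.6 and 10.9 CPM. Ankrd37 was at 22.4, 18.1, 29.9 and 30.2 CPM. It overlaps Ufsp2, which lies on the opposite strand and had 66.8 to 126.7 CPM, and the counting is not stated to use strand. The same limit holds for Pfkp with Pitrm1 (219.1, 189.3, 122.1 and 129.5 CPM). It also holds for Pfkm with Senp1 (43.56 to 104.0 CPM) and Pfkfb2 with Yod1 (6.46 to 10.85 CPM). Bnip3, a mitophagy receptor, was the most abundant of these targets per kilobase of exon in every line and overlapped between the groups, at 384.0, 238.3, 283.8 and 431.2 CPM.

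Across the 22606 genes tested, the edgeR quasi-likelihood test on line sums called 0 genes when an adjusted p below 0.05 was asked together with a log2 fold change past 1.4 in either direction (0%), and hence 0 of the 37 members. At an unadjusted p under 0.05 there were 3636 genes (16.1%) and 9 members, all 9 lower in FS cells, where 7.02% of all genes tested lay lower and 9.06% higher. These were Ndrg1, P4ha1, Slc2a3, Aldoc, Pdk1, Pgk1, Gpi1, Eno2 and Aldoa. DESeq2 on the same sums called 1454 of 21729 genes (6.69%) and 4 members, Ndrg1, Slc2a3, Aldoc and P4ha1, and limma on mean log2(CPM + 1) called 0. The median log2 fold change was -0.41 over the members and -0.01 over all genes tested. With 2 lines a group these p-values measure the spread between lines, which includes the difference in medium between AFX6 and AF32.

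By the order of the 4 lines alone, 17 of 37 members had both FS lines under both EpiSC lines, where 21.5% of all genes tested did, and 4 had both FS lines above, where 26.8% did. Among genes of at least 10 CPM on average the members' counts were 17 and 3 of 35, beside 27.8% and 28.1% of 8987 genes. In 11 of the 17 and 2 of the 4 the order was the same in all 9 ways of summing and scaling that were tried.

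Of 28 further glycolysis genes 26 were in the table and 24 were tested, and of 32 further hypoxia genes 31 were tested. In both lists 0 were called by edgeR in either direction. At an unadjusted p under 0.05, 3 further glycolysis genes lay lower and 3 higher in FS cells, and of the hypoxia genes 11 lay lower and 2 higher, beside the same 7.02% and 9.06% of all genes. The median log2 fold changes were -0.30 and -0.50. Of those reaching 10 CPM in any line, the largest log2 fold changes were those of Bhlhe40, a circadian and hypoxia-induced repressor (23.1, 14.9, 131.8 and 113.6 CPM, -2.70), Hif3a (14.6, 13.9, 21.8 and 76.8 CPM, -1.79), Pdk2 (10.6, 13.7, 38.3 and 42.9 CPM, -1.75), P4ha2 (34.5, 29.5, 77.6 and 97.2 CPM, -1.45) and Ero1l, an oxidase of the endoplasmic reticulum (99.7, 73.5, 280.4 and 163.2 CPM, -1.37). All 5 had both FS lines below both EpiSC lines, with edgeR adjusted p-values of 0.190 to 0.2997. They were picked by fold change in these lines, so this order is no separate support. Of the 24 further glycolysis genes tested, 8 had both FS lines below and 5 above. Of the 31 further hypoxia genes tested, 16 lay below and 3 above, beside 21.5% and 26.8% of all genes tested. HIF1A's partner Arnt was at 39.0, 46.3, 115.2 and 63.1 CPM and is named here after its values were seen.

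The makeup of isozyme families was compared as the share of each gene in the CPM per kilobase of its family. Slc2a3 took 18.0% and 23.9% of the Slc2a1 and Slc2a3 sum in the FS lines and 43.4% and 37.7% in AFX6 and AF32. Aldoc took 2.39%, 1.57%, 5.67% and 5.43% of the aldolases, and Hk1 took 17.9%, 18.5%, 26.5% and 31.3% of the hexokinases. In these 3 families the groups lay farther apart than the lines within a group. The median over cells of the Hk1 share, however, was 11.9%, 9.02%, 4.39% and 26.9%, with AFX6 the lowest line, whereas the medians for Slc2a3 and Aldoc kept both FS lines below both EpiSC lines. Pdk1 took 28.2%, 24.7%, 29.8% and 44.8% of Pdk1 and Pdk3, and Eno3 took 3.22%, 3.53%, 3.199% and 8.65% of the enolases, with AF32 standing out in each. Groups did not overlap in 8 of 10 families for at least 1 member, but with 2 lines against 2 the exact two-sided permutation test cannot give a p under 0.333. No share over other gene families was computed, so the count has nothing to be set against. Some gaps were narrow, as for Eno1 (96.24% in 5ar2 against 96.22% in AFX6) and Egln1 (19.77% in 5ar1 against 19.99% in AF32).

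**Figure D3:**
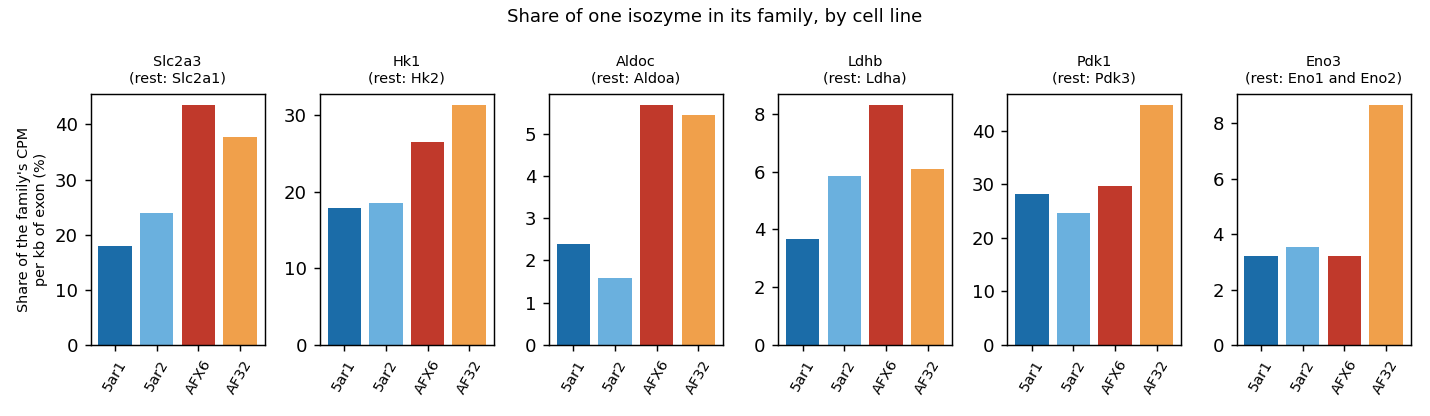
Share of a named isozyme in the CPM per kilobase of exon of its family (%), 1 bar a cell line, with the remaining family members in the panel title and a separate axis from 0 in each panel. By summed counts Slc2a3, Hk1 and Aldoc took a larger share in AFX6 and AF32 than in 5ar1 and 5ar2 (for Hk1 not by the median over cells), while Eno3 was raised in AF32 only.

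The EpiSC lines differed from each other by over 2-fold in 3 of 37 members, where 38.0% of all genes tested did, and in 3 of the 35 of at least 10 CPM, where 15.2% of genes did. These were Egln3 (AF32 over AFX6 3.07-fold, counting interval 3.01 to 3.13), Eno3 (2.65-fold, 2.61 to 2.697) and Egln1 (2.36-fold, 2.29 to 2.44), all higher in AF32. Eno3 and Egln1 lie on chromosomes 11 and 8, whose ratios were raised in 66 and 41 of the 80 AF32 cells. Without cells of a raised ratio of the gene's chromosome the ratios were 2.16 for Eno3, from 14 AF32 cells, and 1.87 for Egln1, which then fell short of 2-fold, and 3.12 for Egln3 on chromosome 12. Slc2a3 lay on the other side, 1.92-fold higher in AFX6. The FS lines, which share a medium, differed by over 2-fold in 2 of 37 members, where 25.2% of all genes tested did, and in 1 of 35 of at least 10 CPM, where 3.16% did. These were Pfkp (5ar1 over 5ar2 2.13-fold, counting interval 2.08 to 2.17) and the scarce Pfkfb4 (2.09-fold, 1.94 to 2.25). Pfkfb4 was detected in 11 of 90 5ar1 cells with a highest cell of 271.2 CPM, and over cells of at least 4000000 counts it was at 2.65 and 2.46 CPM in 5ar1 and 5ar2, so that the difference was no longer past 2-fold. The intervals cover counting error only, since no molecular identifiers were used and reads may stem from the same molecule.

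Within each line the glycolytic genes varied together from cell to cell. Over the 171 pairs of 19 genes of uptake and glycolysis up to Ldha, the median Spearman rho of CPM was 0.295 and 0.221 in the FS lines 5ar1 and 5ar2, and 0.193 and 0.234 in AFX6 and AF32. Over all pairs of the 8997 genes of at least 10 CPM it was 0.00750, 0.00550, 0.0255 and 0.0115. The points are cells that share a line, depth range and processing, so rho is a description. The 5 pairs with the highest lowest rho over the lines were Pfkl with Pkm (0.744, 0.579, 0.630 and 0.650), Aldoa with Pgk1 (0.653, 0.748, 0.569 and 0.807), Gpi1 with Aldoa (0.610, 0.539, 0.653 and 0.783), Pgk1 with Ldha (0.818, 0.752, 0.537 and 0.745) and Gpi1 with Gapdh (0.631, 0.536, 0.533 and 0.713). Ldha, which was at a higher level in the FS lines, thus varied between cells with Pgk1, which was at a lower level there. In each line 1 cell was the lowest for the largest number of genes of the list, at 8, 8, 4 and 4 of 19. Leaving out that cell gave 0.282, 0.200, 0.187 and 0.224.

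**Figure D4:**
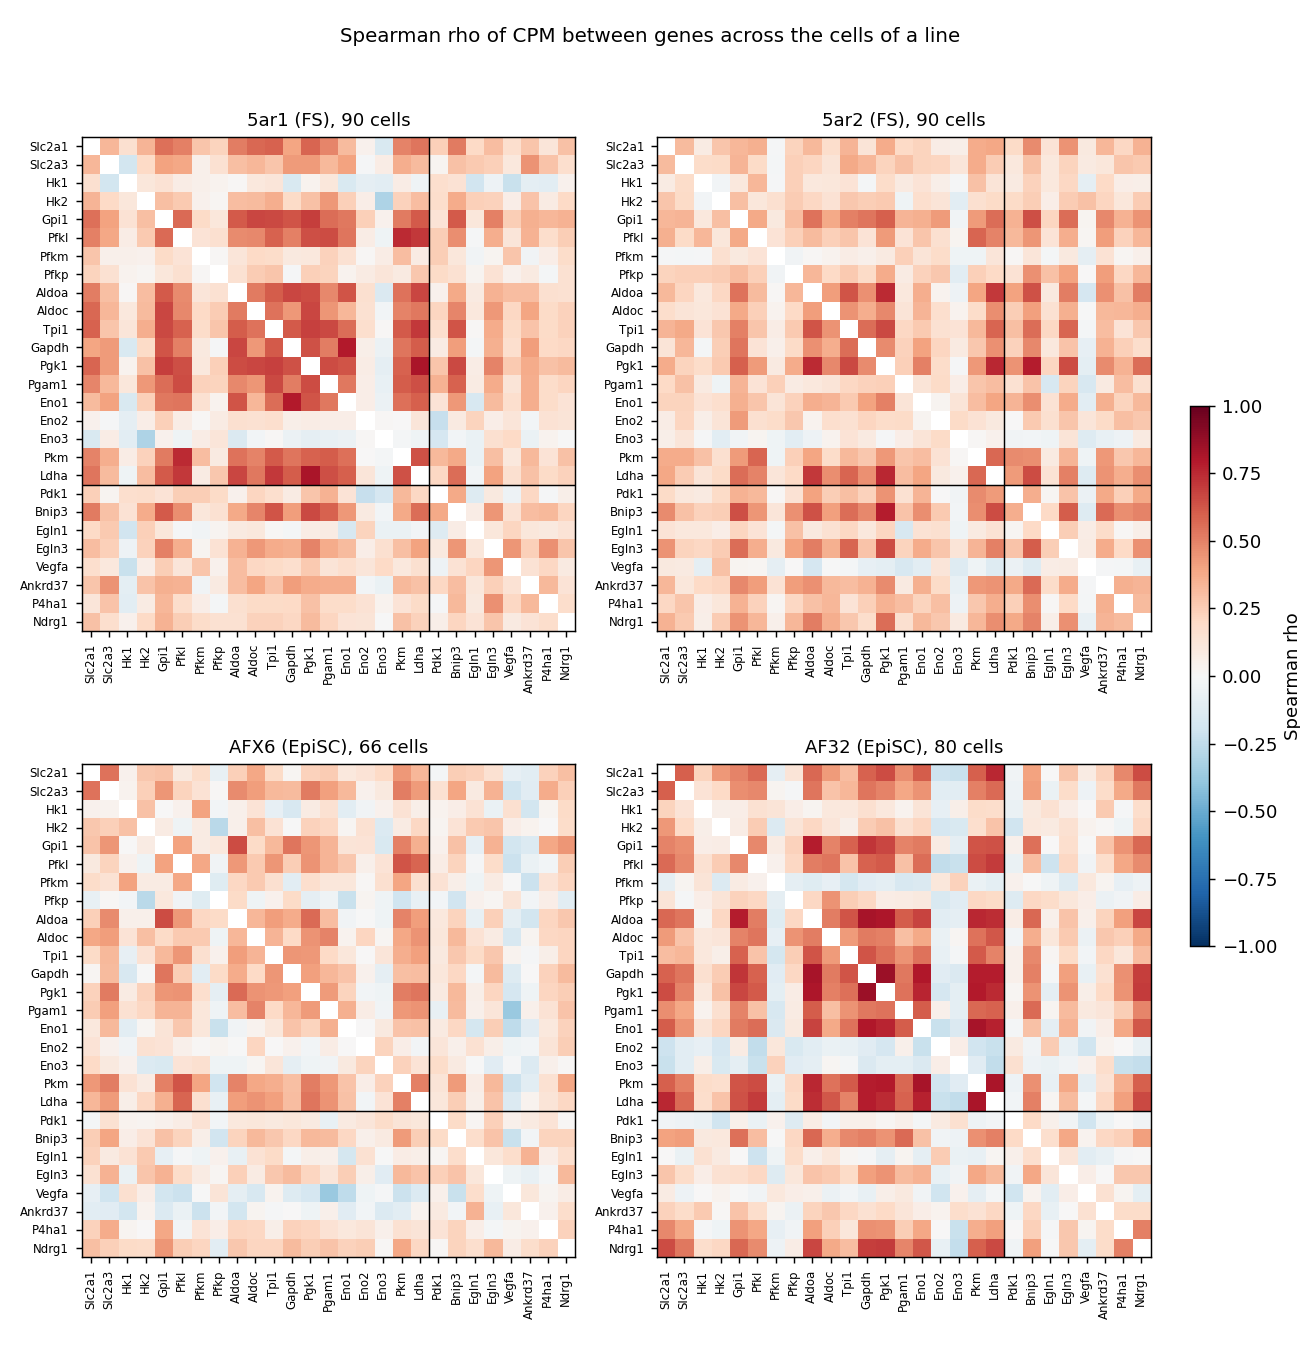
Spearman rho of CPM for each pair of 27 genes across the cells of 5ar1, 5ar2, AFX6 and AF32, from -1 in blue to 1 in red. Black lines part the 19 glycolysis genes from the 8 hypoxia genes. Pgk1 with Ldha ranged from 0.537 to 0.818 over the lines, and AFX6 was the palest for the glycolysis list (median 0.193). Eno3 was weakly related to the rest of the glycolysis list in each line (-0.134 to 0.137).

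Not every member took part. The rho of a gene with the mean Z-score of the rest of the glycolysis list was 0.816, 0.726, 0.649 and 0.818 for Pgk1, 0.802, 0.692, 0.605 and 0.836 for Ldha, and 0.684, 0.566, 0.702 and 0.869 for Pkm. It was -0.114, 0.0379, 0.137 and -0.134 for Eno3 and 0.142, 0.312, 0.0795 and -0.157 for Eno2, the isozymes that make up a small share of the enolases. Hk1 gave -0.0133 to 0.225 and Hk2 0.215 to 0.2999 over the lines. Pfkm gave 0.177, 0.101, 0.354 and -0.0501, and Pfkp 0.266, 0.345, 0.00365 and 0.199.

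The 8 hypoxia genes, which are the 5 targets with Pdk1, Egln1 and Egln3, had a median rho over 28 pairs of 0.161 and 0.243 in the FS lines, and of 0.110 and 0.0592 in AFX6 and AF32. The AF32 value depended on the setting. With cells of at least 4000000 counts, which left 7 genes past 10 CPM, the medians were 0.186, 0.315, 0.131 and 0.173, and with the 5 genes of at least 50 CPM they were 0.248, 0.3715, 0.224 and 0.256, where AF32 no longer lay lowest. Some of the 8 genes followed the glycolysis genes in every line and others did not. Bnip3 had a rho with the glycolysis score of 0.597, 0.769, 0.428 and 0.571, Egln3 of 0.477, 0.656, 0.366 and 0.365, and Ndrg1 of 0.347, 0.558, 0.425 and 0.699. P4ha1 gave 0.2256, 0.4176, 0.2815 and 0.3947, Ankrd37 0.375, 0.551, -0.150 and 0.258, and Pdk1 0.226, 0.407, 0.175 and -0.00492. Egln1 gave 0.0654, 0.2505, 0.130 and 0.0151, and Vegfa 0.266, -0.0103, -0.174 and -0.0210. The mean scores of the lists correlated at 0.620, 0.803, 0.380 and 0.633. Hif1a itself had a rho with the glycolysis score of -0.277, -0.0525, 0.343 and 0.154, with no common sign.

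**Figure D5:**
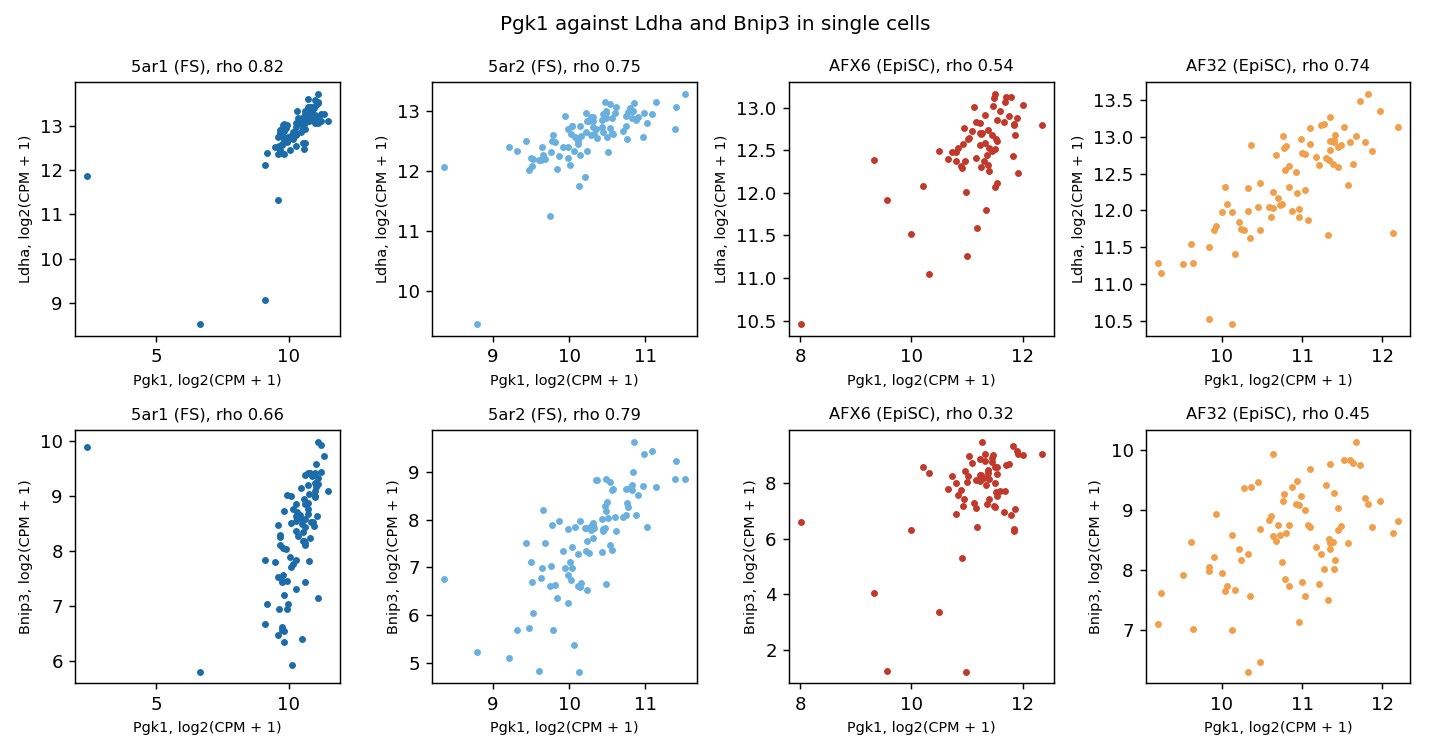
Pgk1 against Ldha (top) and against Bnip3 (bottom) in single cells of each line, as log2(CPM + 1) on every axis, with Spearman rho in the panel titles. Ldha followed Pgk1 in all 4 lines (0.537 to 0.818) and Bnip3 did so most closely in 5ar2 (0.785) and least in AFX6 (0.321).

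The scores of AFX6 also increased with the number of detected genes (rho 0.316 for glycolysis and 0.325 for hypoxia), whereas in the other lines these values lay between -0.0912 and 0.0788. The part of detection in AFX6 was addressed by partial correlation, which gave a glycolysis median of 0.159 there and 0.293, 0.227 and 0.248 in 5ar1, 5ar2 and AF32.

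Among all other genes of at least 10 CPM, those that tracked the glycolysis score best over all 4 lines were led by copies of its own members. Gm6560 and Gm6992, processed pseudogenes whose transcripts match Pkm at 95.0% and 91.3%, gave rho of 0.557 to 0.808 and 0.498 to 0.785, Gm1840, a pseudogene that matches Gpi1 at 98.7%, gave 0.466 to 0.694, and Eno1b gave 0.495 to 0.776. Reads of the parent genes could be counted for these copies, and their number was small against the parent, at 0.889%, 0.264% and 1.06% for the pseudogenes. The only gene of the 5 that is no copy was Ero1l, at 0.550, 0.630, 0.501 and 0.524. Ero1l also led the genes that tracked the hypoxia score (0.622, 0.593, 0.325 and 0.390), followed by Bhlhe40 (0.305, 0.376, 0.331 and 0.308). At the opposite end, the actin-severing factor Cfl1 ran against the glycolysis score at -0.400, -0.321, -0.202 and -0.272, and with it Usmg5, Rbmxl1, Tmem258 and Bex4, whose highest values over the lines were -0.265, -0.214, -0.205 and -0.202. Against the hypoxia score the lowest were Snrpb, a core spliceosome protein (-0.438, -0.341, -0.307 and -0.305), Rbmxl1, Eif2b2, Cfl1 and Sox4, whose highest values were -0.205, -0.198, -0.188 and -0.164. Since CPM sums to a fixed total in each cell, higher counts of abundant genes lower the rest. The part of this fixed total in the negative values was not tested. Cfl1, Usmg5 and Tmem258 also share chromosome 19. Its ratio, computed without Pgam1, was raised in 52 of 90 5ar2 cells and 18 of 80 AF32 cells. In 5ar1 and AFX6 it was raised in 0 of 90 and 2 of 66 cells. The part of the shared chromosome in the negative values was not tested either.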

How the data were processed

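The members and gene lists were chosen with earlier results of these data known. Per the labels, single cells were sorted into lysis buffer and libraries made by Smart-seq2. The authors aligned reads to GRCm38.p6 with STAR 2.7.3a and deposited raw counts per Ensembl gene from featureCounts 2.0.0, for uniquely mapped reads, so genes with near-identical copies lose reads. The deposited normalized values were treated as a score whose scale is not given in the sources used here and served as an alternative only. Columns of 384 cells were matched to cells by the sample number in the labels, and Ensembl identifiers to symbols and exon lengths by GENCODE M21, where 52 had no record. Cells under 3000000 counts were left out, no 2 cells held identical values, and line sums came to 332621205 to 434858507 counts. Cells of a line are not replicates and nothing states separate cultures, so tests compared lines.

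Counts summed over the cells of a line were tested with edgeR 4.0.16 (R 4.3.3; TMM, filterByExpr, quasi-likelihood test, Benjamini-Hochberg adjustment over all genes), with calls made at an adjusted p below 0.05 and a log2 fold change past 1.4 in either direction. DESeq2 1.42.0 and limma 3.58.1 (pseudocount 1) were alternatives. Isozyme shares used CPM per kilobase of the union of exons and exact permutation tests. Fold intervals and shares of cells are exact 95% intervals. Correlations were Spearman rho of CPM across the cells of a line (SciPy 1.17.1), for genes whose 4 line means averaged at least 10 CPM; scores are mean Z-scores of log2(CPM + 1). The chromosome ratio of a cell is the mean over protein-coding genes of at least 20 CPM, each divided by its mean over all kept cells with values above 3 set to 3 and the member left out, over the median of the autosomes. Copies were found with BLAST+ 2.17.0 (at least 90% identity over 300 bases). Only the edgeR test was run on simulated counts with known changes, and its outcome is not given here. The common dispersion that edgeR estimated from the lines was 0.653. Named were all 37 members, the 5 pathway genes with the largest log2 fold change when none was called, the 5 gene pairs with the highest lowest rho over lines, and the 5 genes most and least like each score. Slc2a2, Zfp42 and Cdx2 are not analysed here, and Slc2a3 and Ndrg1 had no promoter in the RefSeq table of GRCm38.p6. Of the 2 rows named Aldoa the one with 9482921 counts was used; the other held 3532.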

Additional observations from a re-analysis of the deposited data

How the results depend on the processing

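No paired analysis was possible because the numbers in the labels only count cells within a line and pair no lines. The 0 called members and 0 called genes of edgeR became 4 and 1454 with DESeq2 and stayed at 0 in the other settings tried; outside DESeq2 the lowest adjusted p of a member was 0.0971. Over 11 settings 21 members kept the sign of their log2 fold change and 16 changed it at least once. On mean log2(CPM + 1) with limma the sign turned for Hk1 (0.0031), Pfkm (0.77), Eno2 (0.036), Ldhb (0.069), Slc16a1 (0.41), Pdk3 (0.45), Pdha1 (0.078) and Hif1a (0.46), and with all 384 cells for Pfkm (0.066), Pkm (0.047) and Pfkfb2 (-0.70). Leaving out each line in turn gave ranges that crossed 0 for Hk2 (-0.0086 to 0.60), Pfkm (-0.46 to 0.38), Eno3 (-1.25 to 0.10), Pkm (-0.23 to 0.10), Slc16a1 (-0.61 to 0.24), Slc16a3 (-0.27 to 0.29), Pfkfb3 (-0.26 to 0.55), Pfkfb4 (-0.88 to 0.20), Pdk3 (-0.53 to 0.12) and Bnip3 (-0.61 to 0.10); a line left alone in its group is assumed to vary like the other group. Leaving out a line can only raise a count of lines that do not overlap: FS above EpiSC went from 4 members to 5 to 9 (7 without 5ar2, 9 without AFX6) beside 36.2 to 43.7% of all genes tested, and FS below from 17 to 19 to 25 beside 30.5 to 38.6%. By the median over cells, 7 members passed 2-fold between AF32 and AFX6 and 7 between 5ar1 and 5ar2, where cells of at least 4000000 counts gave 1. With genes of at least 50 CPM the median rho, averaged over lines, was 0.335 for glycolysis (0.236 at 10 CPM) and 0.275 for hypoxia (0.143). The cause of these changes was not tested. The values without cells of a raised chromosome, without the lowest cell and with Eno1b added were chosen after seeing the data. With 2 lines a group, precision is limited by the number of lines and not by depth.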
